A study of Mus musculus with 6 samples.

Results

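Fibroblast growth factors (FGFs) are secreted signals that fibroblasts both make and respond to. To describe this system in MEFs (mouse embryonic fibroblasts, a culture of connective tissue cells taken from embryos), 10 genes were taken by symbol from the 17092 genes of a count table: the ligands *Fgf2*, *Fgf7*, *Fgf10*, *Fgf18* and *Fgf21*, the receptor tyrosine kinases *Fgfr1*, *Fgfr2*, *Fgfr3* and *Fgfr4*, and the receptor-like gene *Fgfrl1*. The RNA came from MEFs of WT mice and of *Aff3ir-ORF2-/-* mice, with 3 libraries of each. *Aff3ir-ORF2* is a reading frame of *Aff3ir*, a gene nested within an intron of *Aff3*. By the paper's methods, the mice are global knockouts, made by injecting guide RNAs and Cas9 mRNA into fertilized eggs and bred to homozygosity. No treatment and no embryonic age is given for the sequenced cells, and no source used here says whether the libraries of a genotype came from separate embryos or cultures, so that p values measure the spread between these libraries, which may be technical.

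As background, an FGF binds its receptor together with heparan sulfate, a sugar chain on cell surface proteoglycans, and the paired receptors then signal through the adaptor *Frs2* to the RAS and ERK kinases and through phospholipase C gamma. Signalling induces its own brakes, the Sprouty and Spred proteins and ERK phosphatases, and ETS transcription factors. In embryos, mesenchymal cells make *Fgf7* and *Fgf10* for the *Fgfr2* splice form of neighbouring epithelia, while *Fgfr1* is the main receptor of mesenchyme.

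Total counts ranged from 17435133 to 17726034 in WT and from 18209421 to 18252330 in *Aff3ir-ORF2-/-* libraries. The fibroblast identity was checked with 10 markers, including *Col1a1*, *Col1a2*, *Fn1* and *Vim*. Their summed level was 28300 to 28400 CPM (counts scaled to the size of each library) in WT and 24700 to 30700 CPM in *Aff3ir-ORF2-/-* libraries. The sum holds changes in both directions, and *Pdgfrb* rose (log2 fold change 0.59). *Fn1* had a log2 fold change of 0.45, *Col1a1* of -0.49, *Col1a2* of -0.41 and *Vim* of -0.39, each of these under 1.5-fold. *Dcn*, at 0.65, was past 1.5-fold but had an adjusted p of 0.094 by edgeR's test. *Col3a1* was at 942, 963 and 969 CPM in the WT and 584, 1510 and 822 CPM in the knockout libraries. Of the 10 markers, 5 had an adjusted p under 0.05 by the same test. The *Aff3ir-ORF2-/-* libraries were more unlike each other, with a spread beyond counting noise (biological coefficient of variation) of 0.0998 against 0.0184 in WT. Values by library are given below in the order of replicates 1, 2 and 3 of each genotype, and the *Aff3ir-ORF2-/-* libraries are also called knockout libraries. *Aff3ir* was not analysed here. Its host gene *Aff3* gave 406, 406 and 418 counts in the WT and 229, 186 and 209 in the knockout libraries, a log2 fold change of -1.06 (edgeR's quasi-likelihood test, adjusted p = 1.23e-05).

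*Fgf10* and *Fgf2* rose and *Fgfr1* fell in *Aff3ir-ORF2-/-* MEFs, while *Fgf7*, *Fgfr2*, *Fgfr3* and *Fgfrl1* did not pass the test. *Fgf10* was 5.25-fold higher, *Fgf2* 1.95-fold higher and *Fgfr1* 1.87-fold lower. Of the 10 genes, 7 had enough counts to be tested, and *Fgf18*, *Fgf21* and *Fgfr4* did not. A gene was said to rise or fall at a Benjamini-Hochberg adjusted p under 0.05 over all 13075 tested genes together with a change of at least 1.5-fold. Among all tested genes, 21.4% passed, with 14.2% higher and 7.27% lower, beside 2 FGF genes higher and 1 lower of the 7 tested. The median log2 fold change was 0.11 over the 7 genes and 0.01 over all tested genes. The levels of the genotypes did not overlap for the same 3 FGF genes, as they also did not for 66.0% of the genes tested. By adjusted p alone, at any size of change, the count was again 3 of 7, beside 56.8% of the genes tested. In such bulk RNA, fewer cells that express a gene and less RNA per cell cannot be told apart. The summed level of 10 macrophage markers moved with the genotype too, from 17.5 to 20.5 CPM in WT to between 1000 and 1720 CPM in knockout libraries, and their part in the changes of the FGF genes was not tested. For the 4 genes that did not pass, a p above the threshold does not show equal levels, and intervals are given.

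**Figure D1:**
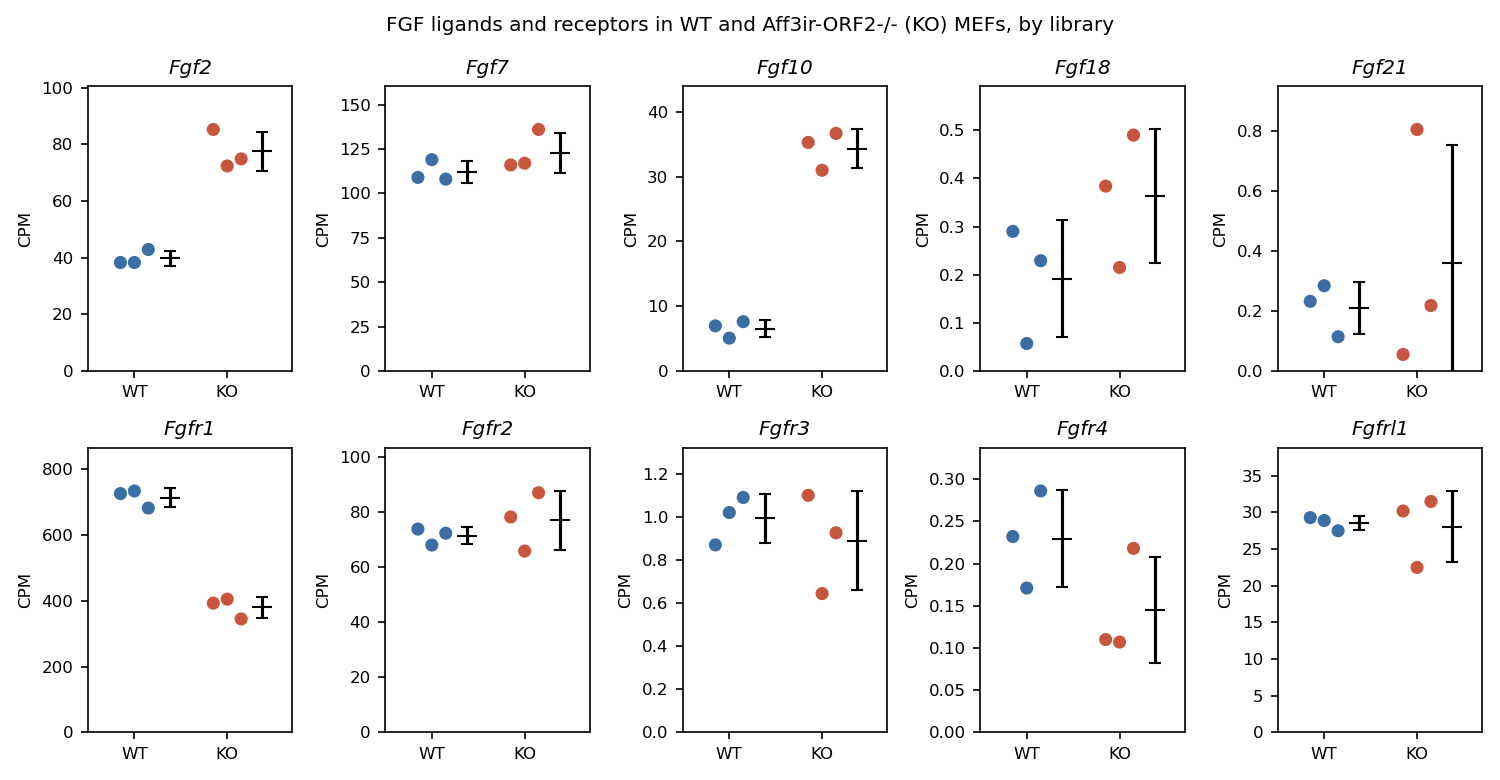
Level of each FGF ligand and receptor gene in CPM (linear axes from 0, a scale of its own for each gene) in 3 WT and 3 *Aff3ir-ORF2-/-* (KO) libraries; points are libraries in replicate order, and the black mark and bar give the mean and SD, cut off at 0 for *Fgf21*. The genotypes are apart for *Fgf2*, *Fgf10* and *Fgfr1* and overlap for the other 7 genes.

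The windows before the starts of the ligand genes that rose, *Fgf2* and *Fgf10*, and of *Fgf7*, the closest relative of *Fgf10* among these genes, are shown as the context in which the ligand genes are read. Each is the 250 bases before the annotated start, 5′ to 3′ on the plus strand of GRCm38.p6 (RefSeq), at chr3:37348403-37348652 for *Fgf2*, chr13:118714449-118714698 for *Fgf10* and chr2:126034408-126034657 for *Fgf7*. Capitals mark the GC box, GGGCGG on either strand, the motif bound by SP1-type factors.
Fgf2: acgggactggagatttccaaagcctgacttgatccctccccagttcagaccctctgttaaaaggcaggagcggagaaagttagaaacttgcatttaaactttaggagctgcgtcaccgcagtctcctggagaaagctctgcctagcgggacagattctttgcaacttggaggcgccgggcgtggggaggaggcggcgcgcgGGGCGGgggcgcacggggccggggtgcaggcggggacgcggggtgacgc
Fgf10: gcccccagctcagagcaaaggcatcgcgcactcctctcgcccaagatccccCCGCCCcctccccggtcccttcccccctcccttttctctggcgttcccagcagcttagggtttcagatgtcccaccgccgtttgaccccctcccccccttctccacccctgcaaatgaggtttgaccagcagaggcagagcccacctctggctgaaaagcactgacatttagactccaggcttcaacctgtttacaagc
Fgf7: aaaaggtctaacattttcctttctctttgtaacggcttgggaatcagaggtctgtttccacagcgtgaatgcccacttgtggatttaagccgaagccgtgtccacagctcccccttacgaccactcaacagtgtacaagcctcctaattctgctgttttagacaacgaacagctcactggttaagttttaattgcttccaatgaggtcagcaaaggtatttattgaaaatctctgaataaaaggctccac
The window of *Fgf2* held 20 CpG dinucleotides and 62.4% G and C, that of *Fgf10* 8 and 61.2%, and that of *Fgf7* 6 and 43.6%. The medians over all 32851 promoter windows in the table were 6 CpG and 52.4%. A GC box was found in 32.7% of all windows and in 8 of the 10 windows of these genes (*Fgfr3* has a pair), those of *Fgf18*, *Fgf21*, *Fgfr3*, *Fgfr4* and *Fgfrl1* included, which did not pass or were not tested, so that the box does not set apart the genes that rose. The *Fgf7* and *Fgfr2* windows held none, and the place of the *Fgfr2* window is uncertain. The bases just after its annotated start were found in no GENCODE transcript of *Fgfr2*, unlike those of the other windows of these genes. The motifs TATAAA (in 12.4% of all windows), TGANTCA (6.75%), TGACGTCA (1.55%) and GCGTGGGCG (0.536%), searched on both strands, were found in none of the 3 windows. Such matches describe letters only. RefSeq windows were matched for 9 of the 10 genes, all but *Fgfr1*.

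*Fgf10*, the mesenchymal ligand that drives the budding of lung and limb, had the largest change of the 7 tested genes. The WT libraries held 120, 89 and 133 counts and the *Aff3ir-ORF2-/-* libraries 644, 578 and 673. Every *Aff3ir-ORF2-/-* library was far above every WT library, and the differences within a genotype were small beside this gap. In CPM, its level went from 6.54 ± 1.32 to 34.3 ± 2.96 (SD, n = 3 each), which is 2.39 on the log2 scale (standard error 0.13, 95% confidence interval 2.10 to 2.69, edgeR's quasi-likelihood test, adjusted p = 2.02e-06).

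*Fgf7*, known as keratinocyte growth factor, signals through the same epithelial form of *Fgfr2* as *Fgf10*. It gave 1884, 2096 and 1883 counts in the WT and 2117, 2176 and 2491 in the knockout libraries. In CPM, the levels of the genotypes overlapped, at 109, 119 and 108 against 116, 117 and 136. The log2 fold change of 0.13 had a 95% confidence interval of -0.02 to 0.29, so that a 1.5-fold rise lay outside it (edgeR's quasi-likelihood test, adjusted p = 0.127). Without *Aff3ir-ORF2-/-* replicate 3, the highest library, it was 0.05 (edgeR's test, adjusted p = 0.443). *Fgf7* thus gave 15.7, 23.6 and 14.2 times as many counts as *Fgf10* in the WT libraries, and 3.29, 3.76 and 3.70 times as many in the *Aff3ir-ORF2-/-* libraries. No test was made of this ratio, which also carries the unequal lengths of the transcripts.

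*Fgf2*, or basic FGF, leaves cells without a classical signal peptide and is a growth factor for fibroblasts themselves. The deposited estimated counts were 660.70, 672.64 and 750.48 for WT, against 1553.89, 1349.50 and 1376.12 for the knockout. The lowest *Aff3ir-ORF2-/-* library was well above the highest WT library. Its level rose from 39.8 ± 2.67 to 77.6 ± 6.82 CPM (SD, n = 3 each), which is 0.96 on the log2 scale (standard error 0.07, 95% confidence interval 0.79 to 1.13, edgeR's quasi-likelihood test, adjusted p = 8.28e-06). Of the 10 genes, *Fgf2* alone had estimated counts that were not whole numbers, in all 6 libraries. The gene overlaps *Nudt6*, transcribed from the opposite strand as its antisense partner, whose estimated counts were not whole either. Strand handling in the counting is not given in the sources used here, so that reads of *Fgf2* and *Nudt6* in the shared stretch cannot be told apart. *Nudt6* was at 73.98, 46.36 and 34.52 in WT and 114.49, 65.74 and 40.88 in *Aff3ir-ORF2-/-* libraries, between 2.88% and 10.1% of the sum of both genes. With the counts of both genes summed, the log2 fold change was 0.93 (edgeR's quasi-likelihood test, adjusted p = 1.36e-05).

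*Fgf18*, a ligand that acts on growing bone and cartilage, gave 5, 1 and 4 counts in the WT and 7, 4 and 9 in the knockout libraries. *Fgf21*, a hormone-like FGF known from liver and fat, gave 4, 5 and 2 counts in the WT and 1, 15 and 4 in the knockout libraries. *Aff3ir-ORF2-/-* replicate 2 stood above the others for *Fgf21*, and the genotypes overlapped for both genes. A difference in either was not detectable at this depth, where 3 counts correspond to 0.164 to 0.172 CPM. The coreceptors of endocrine FGFs were as low: *Klb*, which *Fgf21* needs, gave 4, 3 and 2 counts in the WT and 5, 4 and 2 in the knockout libraries, and *Kl* was counted once in the 6 libraries.

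*Fgfr1* had by far the most counts of the 10 genes and was lower in every *Aff3ir-ORF2-/-* library. The WT libraries held 12532, 12905 and 11918 counts and the *Aff3ir-ORF2-/-* libraries 7164, 7549 and 6342. The highest *Aff3ir-ORF2-/-* library was far below the lowest WT library. Its level fell from 714 ± 28.1 to 381 ± 31.5 CPM (SD, n = 3 each), which is -0.91 on the log2 scale (standard error 0.06, 95% confidence interval -1.05 to -0.76, edgeR's quasi-likelihood test, adjusted p = 4.52e-06). RefSeq places the non-coding genes *Gm31288* and *Gm16159* over *Fgfr1*; neither was analysed here.

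*Fgfr2*, the receptor whose splice forms tell epithelial from mesenchymal ligands, gave 1275, 1198 and 1265 counts in the WT and 1426, 1228 and 1600 in the knockout libraries. The change was 0.11 on the log2 scale (95% confidence interval -0.11 to 0.33, edgeR's quasi-likelihood test, adjusted p = 0.348). *Aff3ir-ORF2-/-* replicate 2 was the lowest of the 6 libraries in CPM. Without it the log2 fold change was 0.21 (edgeR's quasi-likelihood test, adjusted p = 0.00299), which stays under 1.5-fold, and without *Aff3ir-ORF2-/-* replicate 3 it was 0.01 (adjusted p = 0.923), so that the value rests on single libraries. Counts per gene do not separate the splice forms.

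*Fgfrl1*, which binds FGFs but lacks the kinase domain, gave 506, 509 and 481 counts in the WT and 550, 420 and 578 in the knockout libraries. *Aff3ir-ORF2-/-* replicate 2 was again lowest, and the genotypes overlapped (log2 fold change -0.03, 95% confidence interval -0.29 to 0.24, edgeR's quasi-likelihood test, adjusted p = 0.854). Without this replicate the sign turned, with a log2 fold change of 0.10. *Fgfr3*, which restrains growth of cartilage, was scarce, at 15, 18 and 19 counts in the WT and 20, 12 and 17 in the knockout libraries (log2 fold change -0.16, edgeR's quasi-likelihood test, adjusted p = 0.660). Its 95% confidence interval of -0.82 to 0.50 takes in a 1.5-fold fall, and the sign turned here too without *Aff3ir-ORF2-/-* replicate 2, to 0.02. *Fgfr4*, a receptor known from liver, gave 4, 3 and 5 counts in the WT and 2, 2 and 4 in the knockout libraries, too few to be tested.

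**Figure D2:**
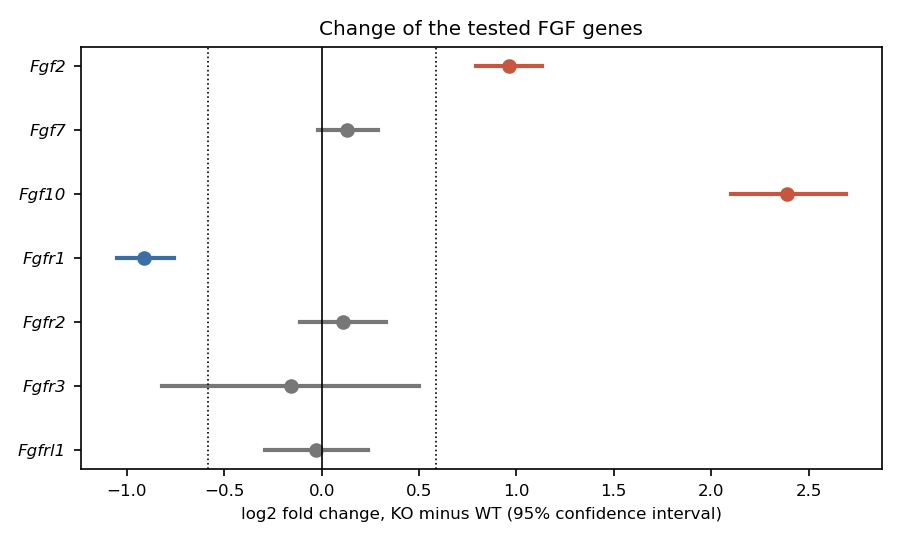
Log2 fold change (*Aff3ir-ORF2-/-*, KO, minus WT) of the 7 tested FGF genes with 95% confidence intervals from edgeR's fit; dotted lines mark a 1.5-fold change, red a rise, blue a fall and grey genes that did not pass. The intervals of *Fgf2*, *Fgf10* and *Fgfr1* lie beyond 1.5-fold, and that of *Fgfr3* is the widest, from -0.82 to 0.50.

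Levels of different genes were compared as CPM per kb of the longest annotated transcript of each gene. In WT MEFs, the order from the top was *Fgfr1* (142 ± 5.57 CPM per kb, SD, n = 3), *Fgf7* (41.9 ± 2.33), *Fgfr2* (16.1 ± 0.678), *Fgfrl1* (12.3 ± 0.410), *Fgf2* (6.67 ± 0.446) and *Fgf10* (1.59 ± 0.322), with no overlap between neighbours. *Fgfr3*, *Fgf21*, *Fgf18* and *Fgfr4* followed at 0.234, 0.221, 0.177 and 0.0690 CPM per kb, with overlap between each of these and the next. In *Aff3ir-ORF2-/-* MEFs, *Fgfr1* (75.6 ± 6.25), *Fgf7* (46.0 ± 4.15) and *Fgfr2* (17.4 ± 2.41) kept this order without overlap. *Fgf2* (13.0 ± 1.14) and *Fgfrl1* (12.1 ± 2.08) were no longer apart, and *Fgf10* came next at 8.35 ± 0.719 CPM per kb. *Fgf21*, *Fgf18*, *Fgfr3* and *Fgfr4* stayed at the bottom, at 0.378, 0.334, 0.209 and 0.0436 CPM per kb. The place of a gene rests on its longest transcript, 5973 bases for *Fgf2* and 2329 for *Fgfrl1*, since which transcripts these cells make was not measured.

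The summed level of the 5 receptor genes was 164 to 174 CPM per kb in WT and 102 to 109 in *Aff3ir-ORF2-/-* libraries. *Fgfr1* made up 83.0%, 83.8% and 82.6% of this sum in the WT libraries, against 71.6%, 76.5% and 67.2% in the knockout libraries. The ranges did not overlap, and *Fgfr1* was the largest part in each of the 6 libraries. The mean share of *Fgfr2* was 9.48% ± 0.572 in WT and 16.6% ± 2.58 in *Aff3ir-ORF2-/-* libraries, and that of *Fgfrl1* 7.21% ± 0.0486 and 11.5% ± 2.06 (SD, n = 3 each). These shares were larger although neither gene passed the test, since a share moves with the fall of *Fgfr1*. *Fgfr3* and *Fgfr4* together stayed under 1% in every library. With the median in place of the longest transcript length, *Fgfrl1* came before *Fgfr2*, at 11.2% against 7.03% in WT and 17.6% against 12.2% in *Aff3ir-ORF2-/-* libraries.

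**Figure D3:**
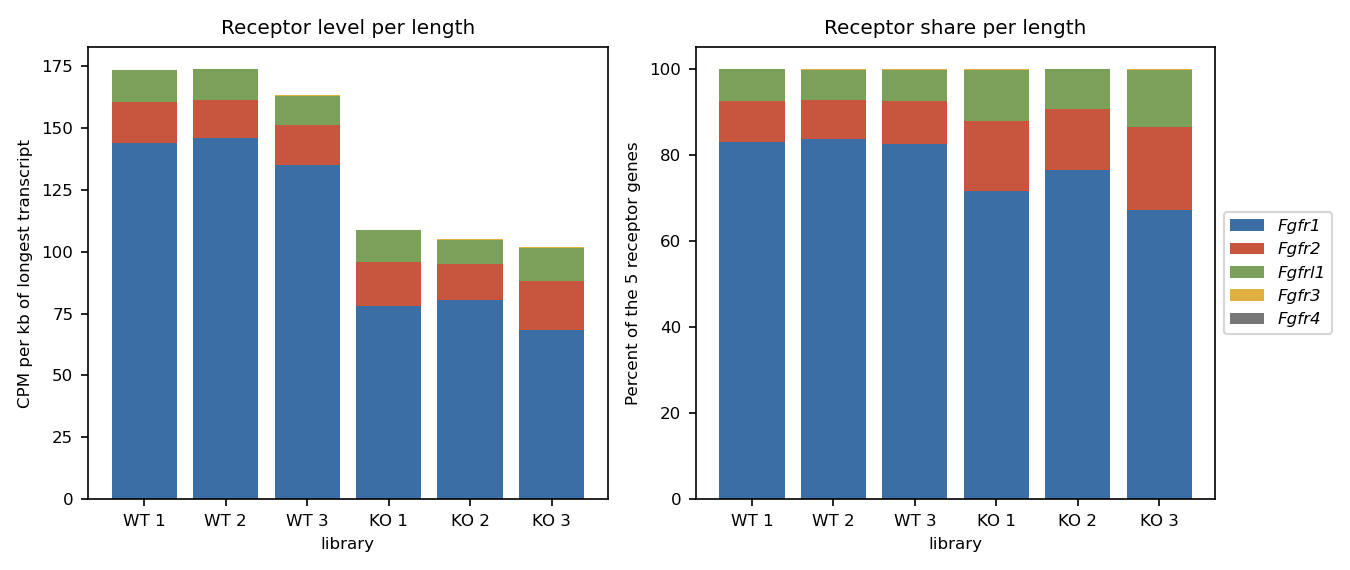
Stacked levels (left, CPM per kb of the longest transcript) and shares (right, percent of the 5 genes) of the FGF receptor genes in each WT and *Aff3ir-ORF2-/-* (KO) library; *Fgfr3* and *Fgfr4* are too low to be seen. The sum is 164 to 174 in WT and 102 to 109 in KO libraries, and *Fgfr1* is the largest part in all of them.

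Other genes of the pathway were read from lists set by hand. Of the 17 remaining FGF genes, 11 were in the table and 4 were tested. *Fgf13*, known as an FGF homologous factor, which stays inside the cell and binds sodium channels rather than being secreted, rose. It went from 97, 102 and 100 counts in the WT to 237, 214 and 250 in the knockout libraries, 2.22-fold higher (edgeR's quasi-likelihood test, adjusted p = 1.89e-05). *Fgf11* and *Fgf14* also passed the test, but with 4 to 7 counts in each WT library they were tested only because of their 17 to 31 counts in the knockout libraries, so that their calls say nothing of the group. Where each library had to hold 10 counts, *Fgf13* was the 1 gene left to be tested, and it was higher. The secreted *Fgf5* was tested too and did not pass, at 19, 20 and 19 counts in the WT and 10, 8 and 21 in the knockout libraries.

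Among 18 coreceptors and ligand carriers, 14 were tested, of which 3 rose and 4 fell, beside 14.2% higher and 7.27% lower among all tested genes. The median log2 fold change was 0.04, and -0.01 without *Aff3ir-ORF2-/-* replicate 2. *Fgfbp3*, a secreted carrier of FGFs (2.53-fold, from 2.20 ± 0.395 to 5.56 ± 0.375 CPM), the heparan sulfate proteoglycans *Sdc4* (2.25-fold, from 77.6 ± 2.71 to 175 ± 25.4 CPM) and *Gpc4* (1.80-fold, from 100 ± 2.23 to 180 ± 4.83 CPM) rose (SD, n = 3 each). The glypicans *Gpc3* (2.51-fold lower, from 58.1 ± 3.37 to 23.1 ± 5.24 CPM), *Gpc1* (1.60-fold lower) and *Gpc6* (1.55-fold lower) fell, as did *Flrt3* (1.59-fold lower), a membrane protein that can bind FGF receptors. Members of the glypican family thus passed the test in both directions. Of 14 tested enzymes of heparan sulfate, *Sulf1* rose and *Glce* fell, beside the same 14.2% higher and 7.27% lower. The median was 0.07. By adjusted p alone (edgeR's test), 5 of the 14 were under 0.05, beside 56.8% of all tested genes. *Sulf1*, a sulfatase that removes from heparan sulfate the 6-O-sulfates that FGF and receptor bind, gave 2444, 2603 and 2473 counts in the WT and 6901, 7729 and 7555 in the knockout libraries. It was 2.79-fold higher, with no overlap (edgeR's quasi-likelihood test, adjusted p = 1.26e-07). *Glce*, the epimerase of heparan sulfate, was 1.58-fold lower, and no heparan sulfate enzyme passed as lower without *Aff3ir-ORF2-/-* replicate 3.

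Of 18 adaptors and kinases below the receptors, all tested, *Frs3* alone passed, beside 21.4% of all tested genes, and the median was 0.11. *Frs3* was 1.54-fold higher, from 1.91 ± 0.104 to 2.95 ± 0.436 CPM (SD, n = 3 each). It no longer passed without WT replicate 1, WT replicate 2 or *Aff3ir-ORF2-/-* replicate 1. *Frs2*, the docking protein that couples FGF receptors to RAS, did not pass, with a log2 fold change of 0.10 (95% confidence interval -0.03 to 0.23).

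Of 15 feedback inhibitors and ETS targets, all tested, 6 fell and 3 rose, beside 7.27% lower and 14.2% higher among all tested genes. The median log2 fold change was -0.16, and -0.24 without *Aff3ir-ORF2-/-* replicate 2 and -0.09 without replicate 3. *Dusp6*, the ERK phosphatase that FGF signalling is known to induce, went from 1344, 1309 and 1399 counts in the WT to 784, 635 and 843 in the knockout libraries. It was 1.89-fold lower, with no overlap (edgeR's quasi-likelihood test, adjusted p = 1.10e-04). The Sprouty genes *Spry4* (1.87-fold lower, from 48.2 ± 3.27 to 25.7 ± 5.05 CPM) and *Spry2* (1.68-fold lower, from 74.2 ± 3.96 to 44.1 ± 6.24 CPM), the ETS factor *Etv4* (1.69-fold lower), and the phosphatases *Dusp4* (1.79-fold lower) and *Dusp5* (3.39-fold lower) fell as well (SD, n = 3 each). *Spred3* (1.63-fold), *Etv1* (2.41-fold) and *Spry3* (2.42-fold) rose, so that Sprouty and ETS genes passed in both directions. *Spry3* was scarce, at 14, 21 and 22 counts in the WT and 32, 54 and 60 in the knockout libraries. *Etv5*, which FGF signalling is known to induce together with *Etv4*, had a log2 fold change of -0.23, under 1.5-fold (edgeR's quasi-likelihood test, adjusted p = 0.00814).

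**Figure D4:**
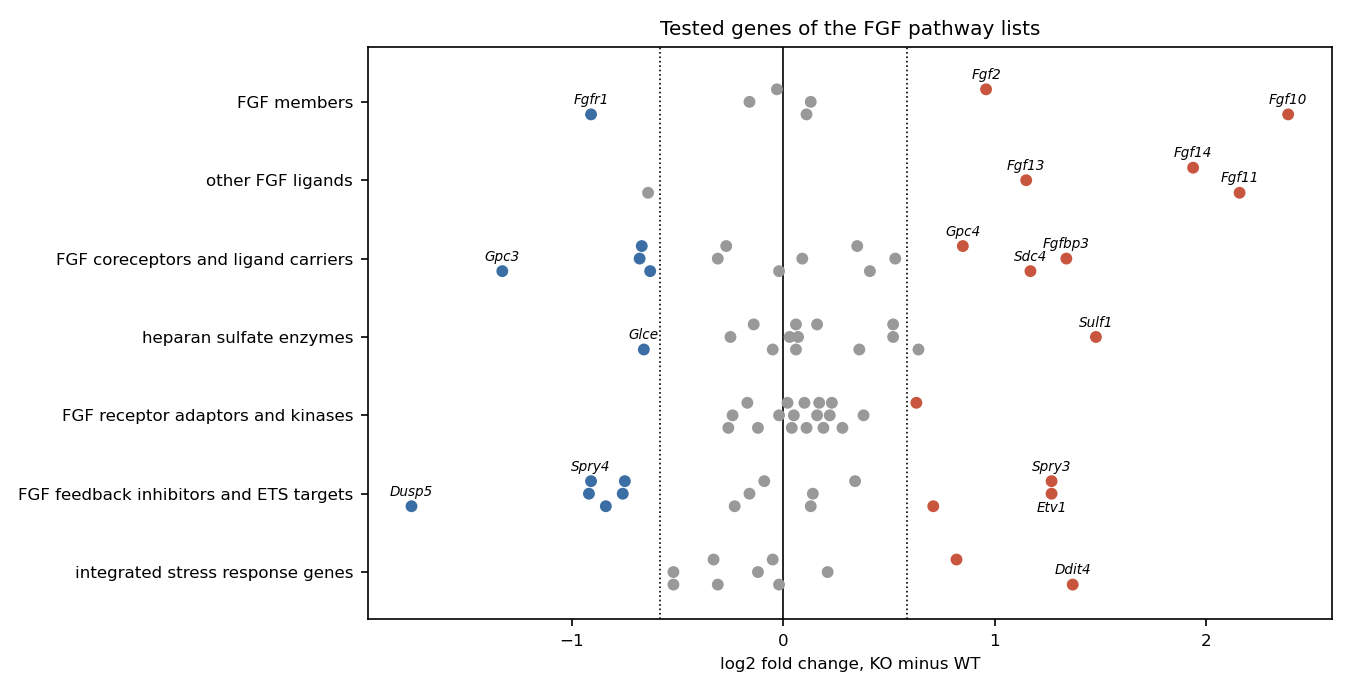
Log2 fold change (*Aff3ir-ORF2-/-*, KO, minus WT) of each tested gene of the FGF genes and of 6 lists around them, with red for genes that rose, blue for genes that fell, grey for those that did not pass and dotted lines at a 1.5-fold change. The adaptors and kinases lie near 0 with 1 call among 18, while coreceptors and feedback genes spread to both sides.

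By distance between mean-centred log2 CPM values over the 6 libraries, the genes whose pattern was closest to that of *Fgf10* were *Pax1* (distance 0.36), *9930111J21Rik1* (0.37), *Parm1* (0.43), *Gpr146* (0.44) and *Aqp5* (0.45). Their log2 fold changes lay between 2.38 (*Gpr146*) and 2.81 (*Pax1*), and the distance includes this difference between the genotypes. *Pax1* and *Gpr146* had 7 to 17 counts in each WT library. *Pax1*, at 11, 7 and 10 counts in the WT libraries, was tested only because of its 67, 60 and 82 in the knockout libraries. *9930111J21Rik1* belongs to a family of near-identical genes and its count is uncertain.

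Of the 10 macrophage markers, 9 were tested and 9 rose, most of them tested only because of their counts in the knockout libraries, and their summed level was 1000, 1370 and 1720 CPM in the knockout libraries, most of it *Lyz2*. *Aif1*, not tested, was scarce in both genotypes, at 0 in each WT library and at 1, 3 and 5 counts in the knockout libraries. The defining genes *Ptprc* and *Csf1r* were at 2 to 11 and 42 to 48 counts in the WT libraries. In the knockout libraries they were at 298, 375 and 479 and at 637, 979 and 1185 counts. The part of these markers in the changes of the pathway genes was not tested either. Of 8 epithelial markers only *Krt18* and *Krt19* had enough counts to be tested and neither passed. Of the untested ones, *Epcam* had 0 to 4 and *Cdh1* 1 to 8 counts a library. *Cldn4* gave 1, 1 and 0 counts in the WT and 16, 6 and 21 in the knockout libraries. *Krt8* gave 6, 16 and 12 in the WT and 5, 5 and 5 in the knockout libraries. Of the endothelial markers 2 rose (*Kdr* and *Vwf*) and 1 fell (*Cdh5*, at 9 to 22 counts a library) among 4 tested. Of the cartilage markers *Col2a1* (5.07-fold), *Col11a2* (1.78-fold) and *Comp* (7.26-fold) rose among 5. *Acan* (2.21-fold lower) and *Sox9* (196, 153 and 204 counts against 343, 359 and 346 in WT) fell. *Comp*, at 10, 9 and 6 counts in the WT libraries, was tested only because of its 70, 68 and 56 in the knockout libraries. Among all tested genes, 14.2% were higher and 7.27% lower. Adipocyte and hepatocyte markers had 3 and 1 tested genes, of which *Fabp4* and *Trf* rose, while *Adipoq*, *Alb* and *Afp* were at 0 to 5 counts in every library.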

How the data were processed

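RNA of WT and *Aff3ir-ORF2-/-* MEFs was sequenced (n = 3 libraries each). Paired-end DNBSEQ reads were filtered with SOAPnuke by the sequencing company, and the authors deposited estimated counts per gene and library, without normalization. The submitters' processing notes name mm8 without a role. Aligner, counting tool and annotation are not given in the sources used here. Between 10.6% and 11.3% of a library's values were not whole, and all were rounded.

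Genes were filtered with filterByExpr (minimum count 10, minimum total 15), which left 13075 of 17092, and tested with edgeR 4.0.16 (TMM, robust quasi-likelihood fit, no covariates; R 4.3.3). Standard errors were taken as the log2 fold change over the square root of F, and CPM used the TMM-scaled totals. A count of 3 was taken as the detection floor, for counting error only. Alternatives used DESeq2 1.42.0, limma 3.58.1 and other scalings, filters, thresholds and left-out libraries. The code was tested on simulated data. The FGF genes and all lists were chosen with earlier results of these data known. Genes named were the 10 FGF genes, up to 6 called genes by adjusted p and 4 by counts from each list, overlapping genes, and the 5 genes closest to *Fgf10*. *Klb*, *Kl*, *Flrt3*, *Dusp5*, *Spry3*, *Etv5*, *Frs2*, *Fgf5*, *Atf4*, *Psat1*, *Asns* and some markers were named after their values were seen. Lengths came from GENCODE M21, and promoters and overlaps from RefSeq (GRCm38.p6), matched by symbol. Chi-square over degrees of freedom was 1.38 to 1.71 between WT libraries and 5.56 to 18.9 between *Aff3ir-ORF2-/-* libraries, so that none was counted as a copy of another. These values cannot show whether the libraries of a genotype came from separate embryos or cultures.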

Additional observations from a re-analysis of the deposited data

How the results depend on the processing

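The rise of *Fgf10* and *Fgf2* and the fall of *Fgfr1* passed under every alternative test, scaling, filter and left-out library that was run, with log2 fold changes of 2.23 to 2.51, 0.88 to 1.02 and -0.96 to -0.84. A 2-fold change left 1 FGF gene higher (*Fgf10*) and 0 lower. *Fgfrl1* changed sign with upper quartile factors (0.01), and leaving out single libraries gave -0.12 to 0.10 for *Fgfrl1* and -0.34 to 0.02 for *Fgfr3*. The cause of these moves was not tested.

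Over all genes, 1851 rose and 951 fell, 1096 and 317 at a 2-fold change, and 1074 and 410 in a test against a 1.5-fold change. At a 2-fold change, the coreceptors had 1 lower gene, the heparan sulfate enzymes 0 lower, the adaptors 0 higher, the feedback genes 1 lower and the stress response genes 1 higher. In the test against a 1.5-fold change these were 1, 0, 0, 2 and 1, with 1 feedback gene higher. The adaptors also had 0 higher with DESeq2's Wald test, and the heparan sulfate enzymes 2 higher with the unadjusted p. The other FGF genes had 1 higher (*Fgf13*, not secreted) where each library had to hold 10 counts, since fewer genes were tested. Without single libraries, the adaptors had 0 to 1 higher, and the heparan sulfate enzymes 1 to 2 higher and 0 to 1 lower. The stress response genes (without knockout replicate 2) and other FGF genes (without knockout replicate 3) had 0 to 1 lower each.

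The median of the other FGF genes, 1.55, was 1.12 without a filter and 1.14 to 1.62 without single libraries. With the strict filter *Fgf13* alone was left, so that the value of 1.16 is no median of a group. The median of 1.55 was taken over 4 genes in the first place. Among these, *Fgf11* and *Fgf14* were tested only because of their counts in the knockout libraries, so that the median says nothing of the group. That of the coreceptors was 0.13 without a filter. That of the heparan sulfate enzymes was 0.11 with upper quartile factors, 0.10 with total counts only and 0.06 to 0.10 without single libraries, and that of the feedback genes was -0.12 with upper quartile factors and -0.24 to -0.09 without single libraries.

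The receptor shares depend on the length used. With the median transcript length, *Fgfr1* took 81.5% in WT, *Fgfr2* 7.03% in WT and 12.2% in *Aff3ir-ORF2-/-*, and *Fgfrl1* 11.2% and 17.6%. By counts without length, *Fgfr1* took 87.6% in WT and 78.1% in *Aff3ir-ORF2-/-*, *Fgfr2* 8.77% in WT, and *Fgfrl1* 3.51% and 5.78%.

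Deviations from the genotype means correlated at 0.04, 0.04 and 0.01 between WT and knockout libraries with the same replicate number. Between those with unlike numbers the correlations were -0.04 to 0. The WT libraries differed by little more than counting noise (chi-square over degrees of freedom 1.38 to 1.71), so that these values cannot show whether the numbers pair libraries. With the replicate number as a block, 1854 genes rose and 954 fell, and the FGF calls were 2 higher and 1 lower, as without it. Robust estimation was switched off and *Nudt6* added to *Fgf2* only after the data had been seen, and neither changed an FGF call. *Fgf18*, *Fgf21* and *Fgfr4* are limited by depth.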

Other observations

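Genes of the integrated stress response, the pathway of *Atf4*, which is known to switch on *Fgf21*, were listed beside the FGF genes. Of 10 tested genes, 2 rose and 0 fell past both thresholds, close to the 21.4% called among all tested genes. The median log2 fold change was -0.09, and -0.19 without *Aff3ir-ORF2-/-* replicate 2 and 0.01 without replicate 3. *Ddit4*, an inhibitor of mTOR signalling, rose 2.59-fold, from 18.0 ± 0.846 to 46.5 ± 3.41 CPM (SD, n = 3 each, edgeR's quasi-likelihood test, adjusted p = 1.29e-06), and *Ddit3*, the factor known as CHOP, rose 1.77-fold, from 41.5 ± 0.5 to 73.3 ± 15.5 CPM (adjusted p = 0.00324 from edgeR's same test). *Atf4* itself was counted 5034, 5255 and 5258 times in WT and 5047, 5671 and 4370 times in *Aff3ir-ORF2-/-* libraries and did not pass. The biosynthetic targets *Psat1* and *Asns* each had a log2 fold change of -0.52, under 1.5-fold. Their adjusted p values were 4.18e-05 and 0.00704 by edgeR's quasi-likelihood test. By adjusted p alone, 4 of the 10 genes were under 0.05, beside 56.8% of all tested genes.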
